A study of Aspergillus aculeatus with 24 samples.

Results

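Of 8615 gene IDs measured in Aspergillus aculeatus, 20 were much lower in wheat bran/soy bean medium than in glucose in strain BCC56535. In strains HUT2365 and BCC199 their means differed less than 2-fold between the media, in either direction. These 20 IDs were chosen from the measured values. For each strain and day, M was the log2 of the mean deposited value of the wheat bran/soy bean libraries over that of the glucose libraries. A member had M of -2 or lower (at most 0.25 of the glucose level) on both days in BCC56535, M between -1 and 1 on both days in the other strains, and a mean of at least 100 in at least 1 glucose group of BCC56535. M was at -2 or lower on both days in BCC56535 for 316 IDs, and 290 of these also met the minimum level. Of the 290, M stayed within 1 on both days for 54 in HUT2365, for 44 in BCC199 and for 20 in both. With HUT2365 in the place of BCC56535 the same rule found 13 IDs, and with BCC199 it found 15.

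The libraries came from mycelium of BCC56535, HUT2365 and BCC199, grown aerobically at 30 °C and collected on day 6 (144 h) or day 3 (72 h). Each strain grew in a wheat bran/soy bean medium or in a glucose medium. That made 12 groups by strain, medium and day, each with 2 libraries that the labels call biological replicates (A and B). The series describes the strains as differing in their ability to degrade plant biomass, and the media as control and cellulase-inducing, without saying in the labels which is which. Here the glucose medium stands as the control. The labels name no mutation or added agent in any strain. Nor do they say that the replicates were separate cultures, and the p-values below therefore cover the variation among these libraries, part of which may be technical.

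Filamentous fungi such as Aspergillus adjust transcription to the carbon source. In glucose, carbon catabolite repression holds down many genes for the use of other carbon sources, and on plant material the enzymes that break down cell walls are induced. Strains of a species can differ in which genes they carry and in how these respond to the medium. The deposited table gives no gene names, and 0 of its 8615 IDs matched the 11152 genes of the RefSeq table for assembly Aspac1. No role, sequence or genome position is therefore given for any of the 20 IDs, and lists of cellulases, transporters or other pathways could not be set against them.

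Levels are normalized read counts as deposited, less a constant of 1 that every value carried. Less that constant, each library's values were whole multiples of 1 step, and 1 read was worth 0.79 to 1.49 normalized reads. The libraries held 19248977 to 30003709 reads each, so IDs of a few reads are known only within wide counting error. Levels of different IDs were not scaled by gene length and are not compared with each other as amounts of RNA.

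The values that chose the members are given as a description, with no test. In BCC56535 M ran between -6.98 and -2.04 on day 6 with a median of -2.99, and between -10.41 and -2.14 on day 3 with a median of -3.06. Over all 8615 IDs, 3.67% had M of -2 or lower on both days in BCC56535. In HUT2365 the median of M over the members was -0.05 on day 6 and -0.28 on day 3, and in BCC199 it was -0.04 on day 6 and -0.41 on day 3. On day 6, M was below 0 for 11 members and above 0 for 7 in HUT2365, and for 10 and 7 in BCC199. On day 3 it was below 0 for 13 and above 0 for 5 in each of these strains. The wheat bran/soy bean libraries of BCC56535 lay below its glucose libraries for 18 of the 20 members on day 6 and for 20 on day 3. With 2 libraries per group, the rule's limit of -2 on both days largely brings this about. The share over all IDs was not counted. M was lower on day 6 for 8 members and lower on day 3 for 12.

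Some members lay close to a limit of the rule. Nearest to the limit of -2, acu05696_1 had M of -2.04 on day 6, and acu07304_1, just outside, had -1.97. Nearest to the limit of 1, acu00582_1 had M of 0.999 in BCC199 on day 6, where it had 7 reads in wheat bran/soy bean, against 3 in glucose, and acu01388_1, just outside, had an absolute M of 1.01. The lowest glucose mean that met the minimum of 100 was 127 (acu04712_1), and the next lower ID that met the rest of the rule, acu03721_1, had 61.6. With any 1 of the 24 libraries left out, 3 members (acu05613_1, acu03884_1 and acu00687_1) met the rule each time, and the other 17 failed it at least 1 time.

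**Figure D1:**
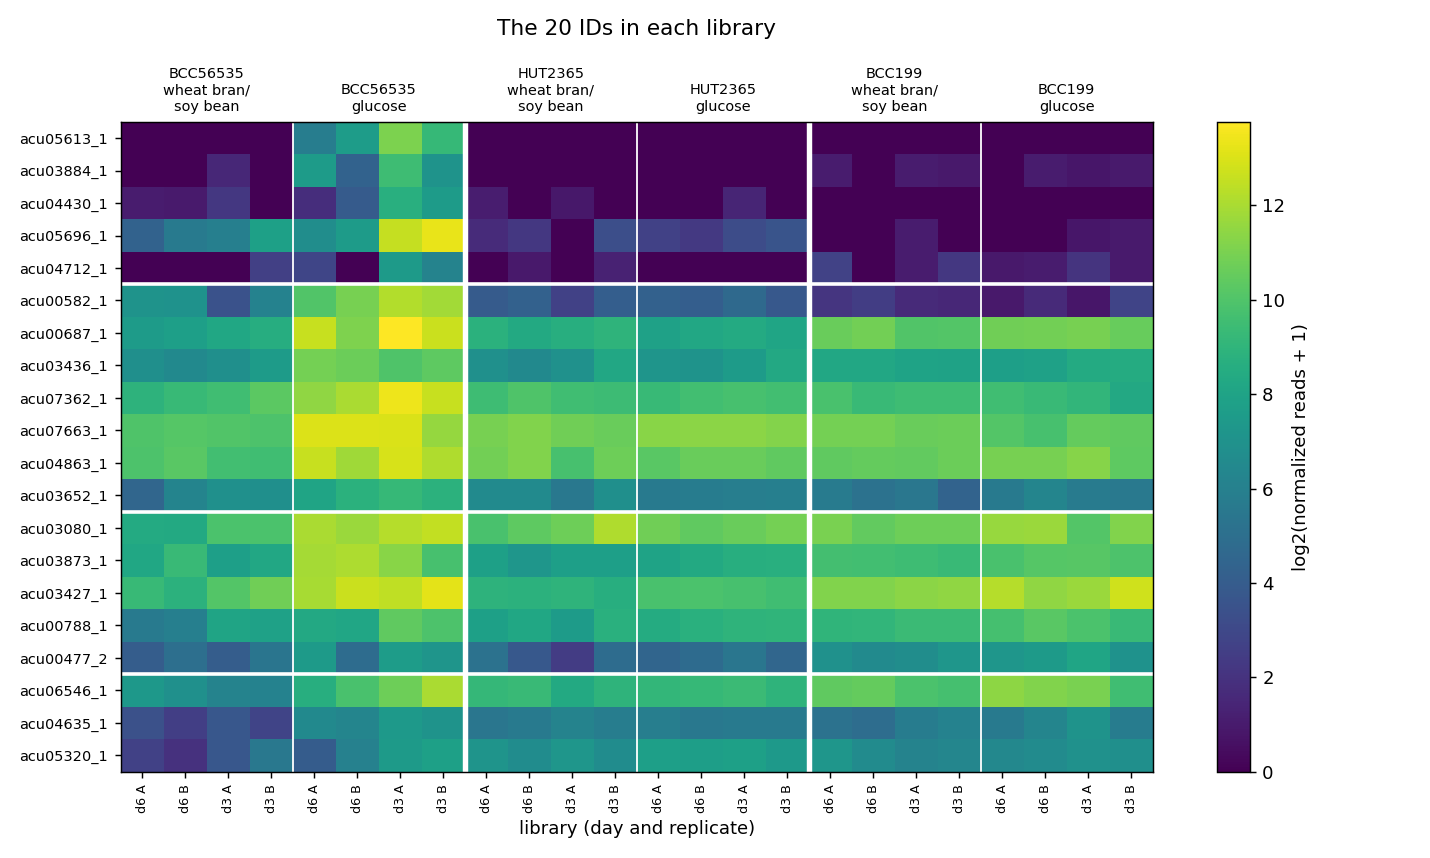
Level of the 20 IDs (rows) in each of the 24 libraries (columns, by strain, medium, day and replicate), as log2(normalized reads + 1). White lines part the IDs from top to bottom into 5 near 0 in the other strains, 7 others high in BCC56535 glucose, 5 in neither group and 3 low in BCC56535 wheat bran/soy bean.

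The sum over the 20 IDs was 4467 and 5160 normalized reads in the wheat bran/soy bean libraries of BCC56535 on day 6, against 40199 and 38455 in its glucose libraries. On day 3 the sums were 5818 and 7377 in wheat bran/soy bean, against 73116 and 58868 in glucose. In HUT2365 they were 7119 to 11084 in wheat bran/soy bean and 8982 to 10055 in glucose, and in BCC199 they were 11992 to 13451 in wheat bran/soy bean and 15936 to 18638 in glucose. The glucose libraries of BCC56535 thus lay above every other library, at 0.152% to 0.259% of their normalized reads, and its wheat bran/soy bean libraries overlapped with those of HUT2365 on day 3 alone. In bulk RNA, fewer cells that express a gene and less RNA per cell cannot be told apart.

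The members were next set against the other strains within each medium. Since BCC56535 entered the rule in both media, these differences are also a description. In glucose, 12 members had a BCC56535 mean at least 2 times that of both other strains on both days. Among the 7421 IDs with a mean of at least 100 in a BCC56535 glucose group, 6.99% did. In wheat bran/soy bean, 3 members had a BCC56535 mean at or below 0.5 of both other strains on both days, against 3.65% of the 7421 IDs. No member did both (0 of 20), and 5 did neither. Without the BCC56535 glucose day 6 replicate B or the BCC199 glucose day 3 replicate B, which changes who meets the rule, the 3 became 1. In glucose the median log2 difference of the members was 2.41 against HUT2365 and 1.66 against BCC199 on day 6, and 2.75 against HUT2365 and 1.84 against BCC199 on day 3. In wheat bran/soy bean it was -0.60 against HUT2365 and -1.19 against BCC199 on day 6, and 0.12 against HUT2365 and -0.79 against BCC199 on day 3. Over the 7421 IDs each of these medians lay between 0.03 and 0.09. For 12 of the 20 members, the lower level in wheat bran/soy bean thus went with a higher BCC56535 glucose level than in the other strains. By the rule's limits on M, each member's glucose difference had to exceed its wheat bran/soy bean difference. The minimum level, asked in BCC56535 glucose alone, favoured members high there, and 7 of the 12 were not near 0 in the other strains. The 7421 IDs were not chosen by M, so their shares do not make these counts a result.

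**Figure D2:**
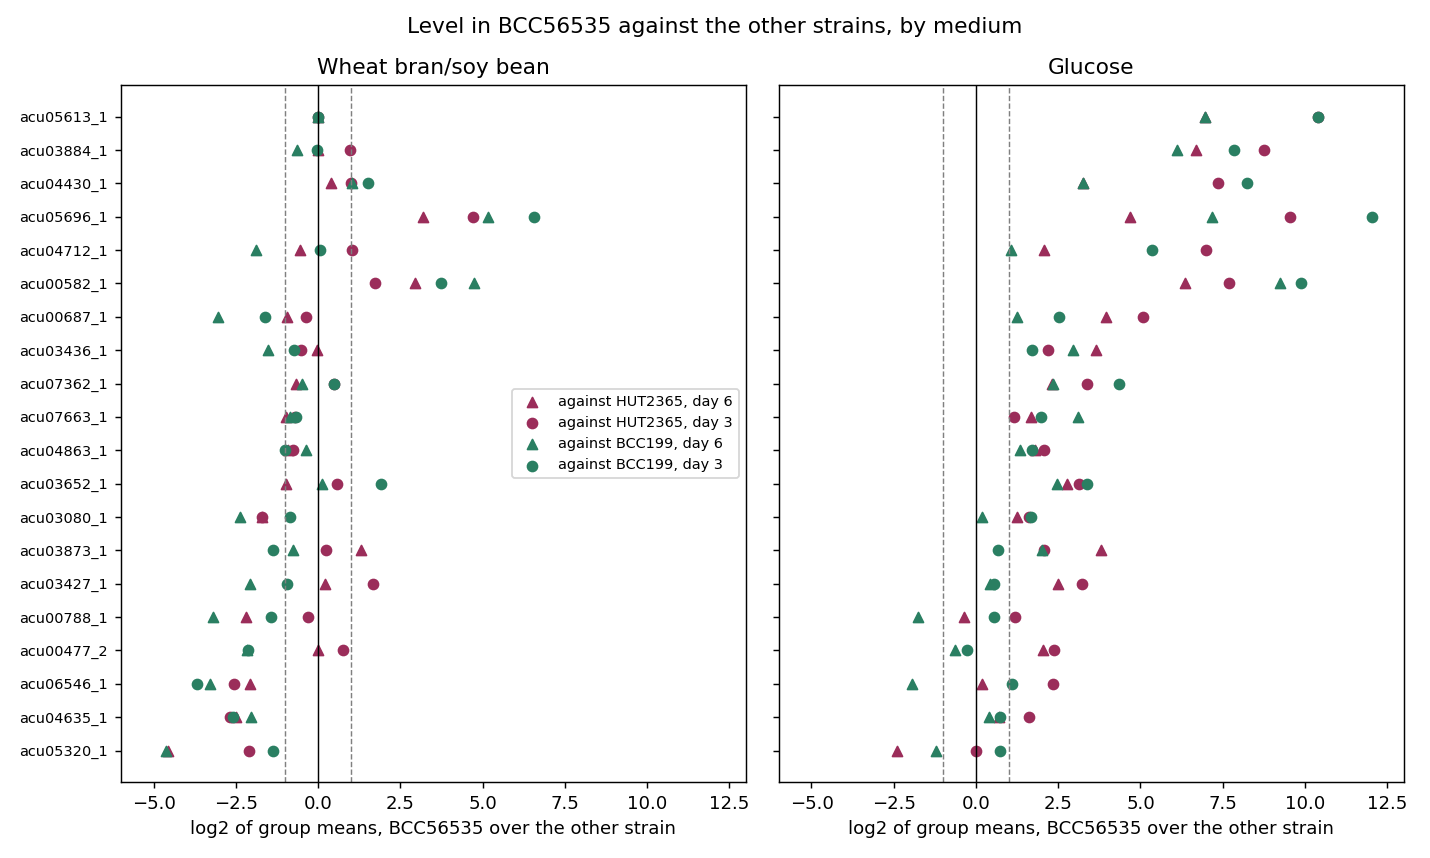
Log2 of the group means (deposited values) of BCC56535 over HUT2365 (purple) and over BCC199 (green), on day 6 (triangles) and day 3 (circles), in wheat bran/soy bean (left) and glucose (right), with 1 row per ID in the order of the heat map. Dashed lines mark differences of 1 in either direction, and 12 IDs have each of their 4 glucose points right of the upper line.

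Among the 12 members high in BCC56535 glucose, 5 had a mean under 10 normalized reads in every group of HUT2365 and BCC199. Their M in those strains rests on at most 22 reads in a group, and for several groups on 0. Of the 7421 IDs, 0.337% did. They were acu05613_1, acu03884_1, acu05696_1, acu04430_1 and acu04712_1, the last of which was named after its values were seen. acu05613_1 had 0 reads in the 4 wheat bran/soy bean libraries of BCC56535, against 56.8 and 193 normalized reads in glucose on day 6 and 2119.6 and 592 on day 3. It also had 0 reads in the 16 libraries of HUT2365 and BCC199. Reads of acu05613_1 were thus found in BCC56535 glucose and in no other group of these libraries. Against 3 reads per library, its glucose level was at least 43.9-fold above that in wheat bran/soy bean on day 6 and at least 446-fold above it on day 3, counting error only.

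acu03884_1 had 0 reads in BCC56535 wheat bran/soy bean on day 6, against 187 and 19.2 normalized reads in glucose. On day 3 it had 1.87 and 0 in wheat bran/soy bean, against 734 and 135 in glucose. Replicate A was the higher of the glucose libraries on both days, and the SD of its day 3 mean of 434 was 424. It had 0 reads in the 8 HUT2365 libraries and 6 in the 8 of BCC199.

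acu05696_1 had the highest glucose level of the 5 on day 3. Its level was 19.1 and 49.9 normalized reads in wheat bran/soy bean on day 6, against 105 and 185 in glucose. On day 3 it had 59.8 and 226 in wheat bran/soy bean, against 5978 and 10042 in glucose, and the media did not overlap on either day. It had 0 to 11.1 normalized reads in the HUT2365 libraries and 3 reads in the 8 of BCC199. Its wheat bran/soy bean level in BCC56535 therefore stayed above every library of the other strains, so that it was lower than in glucose without reaching their level.

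For acu04430_1 and acu04712_1 the day 6 values rest on a few reads. acu04430_1 then had 2 reads in wheat bran/soy bean, against 17 in glucose, a ratio of glucose to wheat bran/soy bean of 9.11 (95% exact binomial interval 2.16 to 81.3). Its day 3 libraries had 3.74 and 0 normalized reads in wheat bran/soy bean, against 411 and 186 in glucose. acu04712_1 had 0 reads in wheat bran/soy bean on day 6, against 5 in glucose, which is fewer than 3 reads per library, and a difference between the media was thus not detectable at this depth. Nor was its glucose difference between strains on day 6, at 5 reads in BCC56535, against 0 in HUT2365 (a ratio of at least 1.08) and 2 in BCC199 (ratio 2.80, interval 0.458 to 29.4), although its means place it among the 12. Its day 3 libraries had 0 and 5.06 normalized reads in wheat bran/soy bean, against 181 and 71.1 in glucose.

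**Figure D3:**
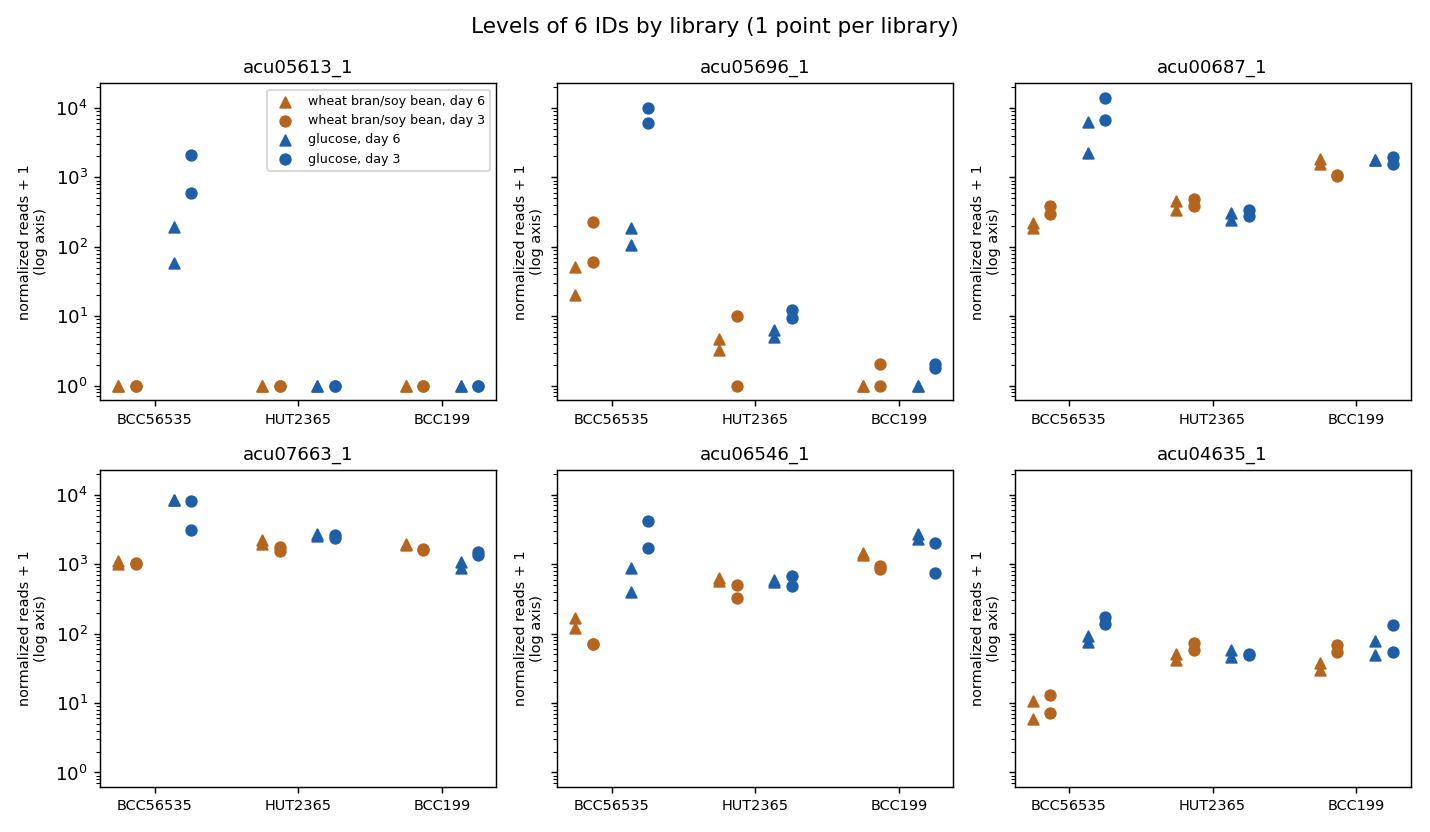
Level of 6 IDs in each library, as normalized reads + 1 on a log axis, in wheat bran/soy bean (brown, left within each strain) and glucose (blue), on day 6 (triangles) and day 3 (circles). acu05613_1 lies above 1 in BCC56535 glucose and in no other group, and acu06546_1 and acu04635_1 are lowest in BCC56535 wheat bran/soy bean.

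The other 7 members high in BCC56535 glucose were also read in the other strains. acu00582_1 was the lowest there, with 5.29 to 25.1 normalized reads in HUT2365 and 0.796 to 6.17 in BCC199. In BCC56535 it had 136 and 128 in wheat bran/soy bean on day 6, against 1037 and 1962 in glucose. The day 3 libraries had 10.3 and 66.9 in wheat bran/soy bean, against 4603 and 3763 in glucose. Its BCC56535 mean was thus above those of the other strains in both media and on both days, although its wheat bran/soy bean replicate A of day 3 lay among the HUT2365 libraries.

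acu00687_1 and acu07663_1 had the highest glucose means over both days of the 20 in BCC56535. acu00687_1 had 187 and 221 normalized reads in wheat bran/soy bean on day 6, against 6194 and 2241 in glucose. The day 3 levels were 298 and 387 in wheat bran/soy bean, against 13985 and 6631 in glucose. Its levels were 239 to 494 in HUT2365 and 1048 to 1997 in BCC199, so its BCC56535 libraries lay above both strains in glucose and below BCC199 in wheat bran/soy bean.

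acu07663_1 had 1009.6 and 1116 normalized reads in wheat bran/soy bean on day 6, against 8351 and 8527 in glucose. Its day 3 libraries had 1049 and 989.6 in wheat bran/soy bean, against 8114 and 3084 in glucose. It ranged over 1560.4 to 2708 in HUT2365 and 877 to 1928 in BCC199. Each of its BCC56535 glucose libraries lay above every library of the other strains, and each of its wheat bran/soy bean libraries lay below every wheat bran/soy bean library of the other strains. The 4 other members of this kind had 22.3 to 1195 normalized reads in BCC56535 wheat bran/soy bean on day 6, against 263 to 6186 in glucose, and on day 3 they had 116 to 1266, against 455 to 10922 in glucose.

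The 3 members low in BCC56535 wheat bran/soy bean were acu06546_1, acu04635_1 and acu05320_1. acu06546_1 had 164 and 118 normalized reads in BCC56535 wheat bran/soy bean on day 6, against 573 and 634 in HUT2365 and 1337 and 1466 in BCC199. On day 3 it had 70.1 and 68.9 in BCC56535, against 328 and 505 in HUT2365 and 949 and 845 in BCC199. In glucose it had 403 and 891 on day 6 and 1703 and 4209.8 on day 3 in BCC56535, against 487 to 678 in HUT2365 and 743 to 2727 in BCC199, so the strains overlapped in glucose and not in wheat bran/soy bean.

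acu04635_1 had 9.54 and 4.89 normalized reads in BCC56535 wheat bran/soy bean on day 6 and 12.2 and 6.08 on day 3. The 8 wheat bran/soy bean libraries of the other strains had 41.1 to 71.4 in HUT2365 and 29.3 to 67.3 in BCC199. In glucose it had 90.9 and 75.8 on day 6 and 170.2 and 135 on day 3 in BCC56535, which overlapped with the 48.8 to 131 of BCC199. acu05320_1 had 5.3 and 2.93 in BCC56535 wheat bran/soy bean on day 6 and 12.2 and 44.6 on day 3, against 102 to 147 in HUT2365 and 71.2 to 150.2 in BCC199. In glucose on day 6 it was also lower in BCC56535, at 15.1 and 64.3, than in HUT2365 (219 and 209) and BCC199 (86.5 and 99.3).

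The 5 members in neither group were acu00477_2, acu00788_1, acu03080_1, acu03427_1 and acu03873_1. acu00788_1 was below both other strains in wheat bran/soy bean on day 6, at 50.9 and 61.6 normalized reads, against 230.2 and 297 in HUT2365 and 508 and 534 in BCC199. On day 3 its BCC56535 libraries had 262 and 235, which lay within the 186 and 433 of HUT2365. acu03427_1 stood between the other strains in wheat bran/soy bean, with 1106 and 1757 in BCC56535 on day 3, against 496 and 400.2 in HUT2365 and 2638 and 2862 in BCC199. Its M in the other strains was close to the limit of -1, at -0.99 on day 6 and -0.85 on day 3 in HUT2365. In BCC199 it was -0.75 on day 6 and -0.92 on day 3. For acu03427_1 and acu03873_1, the wheat bran/soy bean libraries also lay below the glucose libraries in both other strains on both days. acu03080_1 had 337 and 334 in BCC56535 wheat bran/soy bean on day 6, against 913 and 1289.5 in HUT2365 and 2064 and 1406 in BCC199, while in glucose its day 6 libraries, 4092 and 3331, overlapped with the 3205 and 3363 of BCC199. acu03873_1 had 216 and 304 in BCC56535 wheat bran/soy bean on day 3, against 218 and 221 in HUT2365 and 712 and 643 in BCC199, and in glucose on day 6 its BCC56535 libraries, 3899.8 and 4243, lay above both other strains. acu00477_2 had 15.9 to 40.5 in BCC56535 wheat bran/soy bean, against 27.8 to 194 in glucose, and its media overlapped on day 6, when the glucose libraries had 182 and 27.8.

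The level of BCC56535 over both media and both days is not one of the contrasts the rule used, although the minimum of 100 in BCC56535 glucose favours high values. Tests were made with limma across all 8509 IDs that passed a filter on low values, which each of the 20 members did. Against HUT2365, 14 members were higher in BCC56535, 4 were lower and 2 did not pass, where 35.9% of all tested IDs were higher and 34.9% lower. Of the 7421 IDs that meet the minimum level, 37.8% were higher and 32.6% lower. Against BCC199, 11 members were higher, 6 were lower and 3 did not pass, where 37.3% of all tested IDs were higher and 36.5% lower, and of the 7421 IDs 39.2% and 34.4%. The 5 members near 0 in the other strains are among those called higher both times. They met the minimum level through BCC56535 glucose and had to differ, so their calls are no result of this comparison. Of the other 15 members, 9 were higher and 4 lower against HUT2365, and 6 were higher and 6 lower against BCC199. The higher ones include acu00582_1 and acu03652_1 both times. Their group means in the other strains reached at most 19.0 and 94.9 normalized reads, under the minimum of 100 that they met in BCC56535 glucose. acu00477_2, higher against HUT2365, had at most 40.9 there. These calls are therefore no result either. acu04635_1, at most 92.4 in the other strains, was lower both times. The contrast holds the BCC56535 glucose values that the rule used, so the counts of the 15 are a description. Over all 20 members the median log2 difference was 1.35 against HUT2365 and 0.49 against BCC199, and over all tested IDs it was 0.02 in both. The members' medians take in the 5 near 0 in the other strains, so they too are no result of this comparison. The libraries of acu05696_1 did not overlap with either strain, and those of acu00582_1 did not overlap with BCC199. Both had few reads per library in those strains and a high level in BCC56535 glucose, which the rule asked for, so their differences are given by the levels above alone.

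Whether the members differed between HUT2365 and BCC199, the strains in which M stayed within 1, was tested within each medium over both days. In wheat bran/soy bean 2 members were higher in HUT2365, 7 were lower and 11 did not pass, against 36.3% and 34.2% of all tested IDs. In glucose 4 were higher, 7 were lower and 9 did not pass, against 32.3% and 31.7%. These shares of 20 cannot be read directly against those of all IDs, since acu05613_1, acu03884_1, acu04430_1 and acu04712_1 had 0 to 19 reads over the 16 libraries of these strains and so could not be called. None of these 4 was called in either medium.

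acu00477_2 was lower in HUT2365 in both media. In wheat bran/soy bean it had 4.41 to 35.6 normalized reads in HUT2365, against 97.1 to 148 in BCC199 (log2 difference -2.71, adjusted p = 0.00037). In glucose it had 21.6 to 40.9, against 126 to 277 (log2 difference -2.60, adjusted p = 0.00065). acu03427_1 had 400.2 to 496 in HUT2365 wheat bran/soy bean, against 2304 to 2862 in BCC199 (log2 difference -2.46, adjusted p = 1.5e-07). acu00687_1 had 239 to 338 in HUT2365 glucose, against 1548 to 1997 in BCC199 (log2 difference -2.62, adjusted p = 2.5e-07). The strains did not overlap for any of these IDs.

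In the other direction, acu07663_1 had 2388 to 2708 normalized reads in HUT2365 glucose, against 877 to 1471 in BCC199 (log2 difference 1.13, adjusted p = 9.6e-05). acu05320_1 had 175 to 225, against 86.5 to 125 (log2 difference 0.95, adjusted p = 0.039). It no longer passed with any 1 of the 8 glucose libraries of these strains left out (adjusted p 0.055 to 0.11).

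The change from day 3 to day 6 within a medium was tested next, since the rule compared media within a day. The rule did ask for M of -2 or lower on both days, and for the minimum level on 1 day only. In glucose, acu04430_1, acu04712_1, acu05320_1 and acu04635_1 met that minimum on day 3 alone, so they were chosen as high on that day. In BCC56535 glucose, 10 members fell by day 6, 1 rose and 9 did not pass, where 14.0% of all tested IDs fell and 13.6% rose. The median log2 change was -1.32 over the members and -0.01 over all tested IDs. The 10 include acu04430_1, acu04712_1 and acu05320_1, whose fall the choice by day 3 favoured. Their calls are no result of this test, and the members' median takes them in. acu05696_1 had 105 and 185 normalized reads on day 6, against 5978 and 10042 on day 3 (log2 change -5.78, SE 0.70, adjusted p = 2.7e-05). acu04430_1 had 2.52 and 14.4 on day 6, against 411 and 186 on day 3 (log2 change -5.02, SE 0.63), given as a description. The days did not overlap for either. Each of the 5 members near 0 in the other strains fell, with a median of -4.83, and the other 15 members had a median of -0.85. Both medians take in members that met the minimum level on day 3 alone. Among the 5, the days overlapped for acu03884_1, with 187 and 19.2 normalized reads on day 6, against 734 and 135 on day 3 (log2 change -2.33, SE 0.81, adjusted p = 0.042). acu03873_1 rose, with 3899.8 and 4243 normalized reads on day 6, against 2526 and 861 on day 3 (log2 change 1.46, SE 0.40, adjusted p = 0.013). Without the day 3 replicate B its log2 change was 0.69 (adjusted p = 0.2), and without the day 6 replicate B it was 1.40 (adjusted p = 0.051).

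These calls rest on an estimate of the spread that all 12 groups share. With the 4 glucose libraries of BCC56535 alone in the fit, 1 member was called (lower), and the members' log2 differences between replicates A and B had an SD of 1.42 on day 6 and of 0.96 on day 3. For all tested IDs it was 0.72 on day 6 and 0.80 on day 3.

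**Figure D4:**
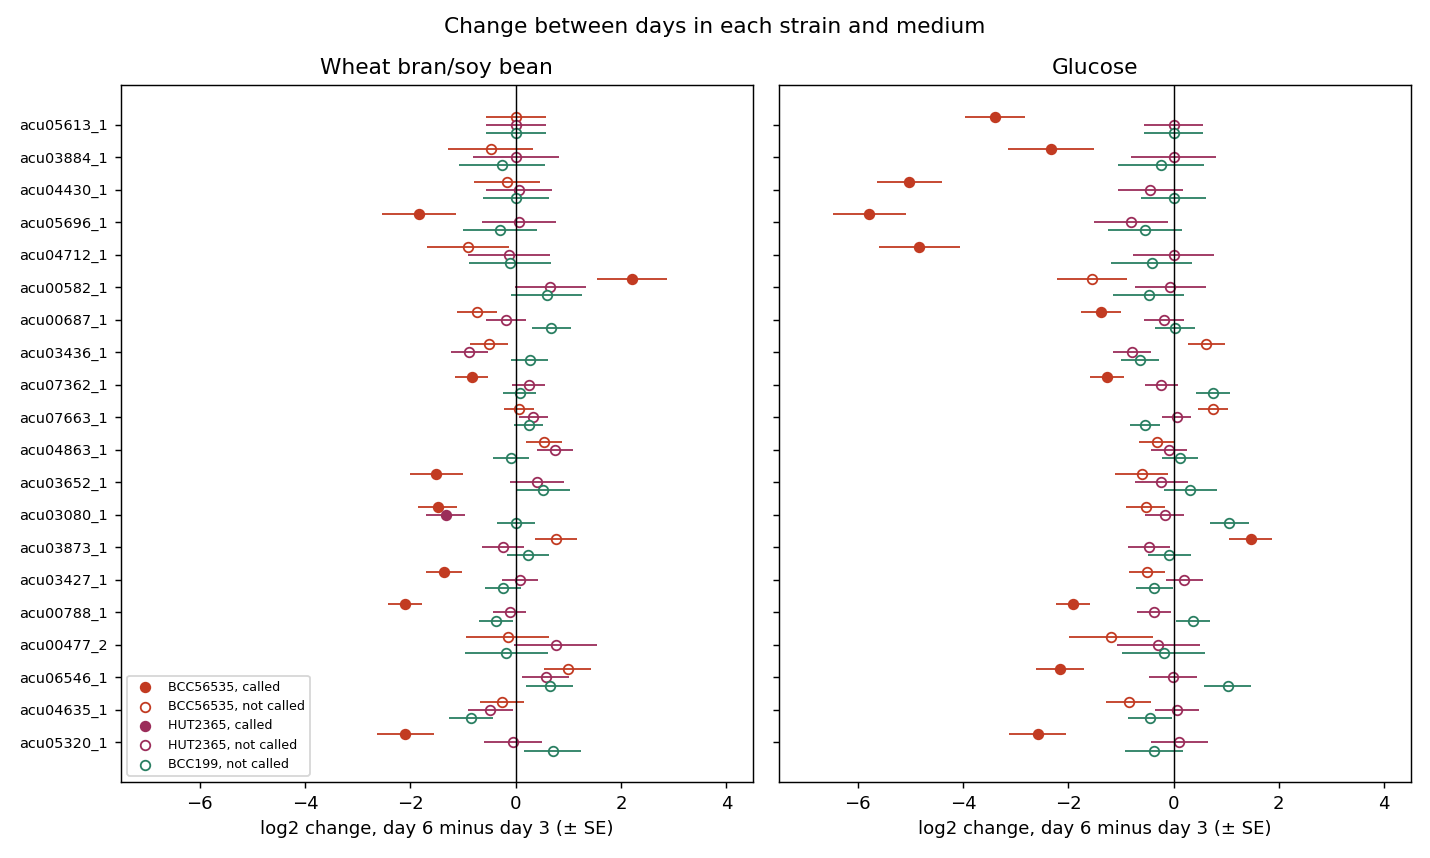
Log2 change from day 3 to day 6 (day 6 minus day 3, ± SE from limma, log2(deposited value + 1)) in BCC56535 (red), HUT2365 (purple) and BCC199 (green), in wheat bran/soy bean (left) and glucose (right), with 1 row per ID in the order of the heat map. Filled points passed an adjusted p of 0.05, which 10 IDs did on the lower side in BCC56535 glucose and 0 did in HUT2365 or BCC199 glucose.

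In BCC56535 wheat bran/soy bean, 7 members fell by day 6, 1 rose and 12 did not pass, where 19.5% of all tested IDs fell and 17.7% rose. The median log2 change was -0.49 over the members and -0.01 over all tested IDs. acu00788_1 had 50.9 and 61.6 normalized reads on day 6, against 262 and 235 on day 3 (log2 change -2.11, SE 0.32, adjusted p = 9.2e-05). acu05696_1 had 19.1 and 49.9, against 59.8 and 226 (log2 change -1.84, SE 0.70, adjusted p = 0.048). Without the day 3 replicate B the log2 change of acu05696_1 was -0.90 (adjusted p = 0.45), and without the day 6 replicate A it was -1.19 (adjusted p = 0.32). acu00582_1 rose, with 136 and 128 on day 6, against 10.3 and 66.9 on day 3 (log2 change 2.20, SE 0.67, adjusted p = 0.016), and it no longer passed without the day 3 replicate A (log2 change 0.96, adjusted p = 0.27), the day 6 replicate A (adjusted p = 0.071) or the day 6 replicate B (adjusted p = 0.057). acu00788_1 fell in glucose as well, with 322 and 284 on day 6, against 1339.9 and 979.9 on day 3, and its M was -2.41 on day 6 and -2.22 on day 3.

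The count in wheat bran/soy bean depended on single libraries. Against 8 with all libraries, it was 3 when replicate B of day 3 was left out, 5 when replicate A of day 6 was, 4 when replicate B of day 6 was, and 3 with the 4 libraries alone in the fit.

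In HUT2365 and BCC199 few members were called between the days, and acu05613_1, acu03884_1, acu04430_1 and acu04712_1 had too few reads there to be. acu05696_1, with 45 reads over the 8 HUT2365 libraries and 3 over the 8 of BCC199, was not called either. In HUT2365, 1 fell in wheat bran/soy bean and limma called 0 in glucose, with 1 at an unadjusted p under 0.05. Of all tested IDs in HUT2365, 4.7% fell and 4.07% rose in wheat bran/soy bean, and 0.0353% fell in glucose. In BCC199, limma called 0 members in wheat bran/soy bean and 0 in glucose, with 0 and 3 at an unadjusted p under 0.05. Of all tested IDs in BCC199, 5.48% fell and 8.02% rose in wheat bran/soy bean, and 1.23% fell and 0.94% rose in glucose. The member that fell in HUT2365 was acu03080_1, with 913 and 1289.5 normalized reads on day 6, against 1684 and 4427 on day 3 (log2 change -1.33, SE 0.37, adjusted p = 0.034). It no longer passed without the day 3 replicate B (adjusted p = 0.29), the day 6 replicate A (0.18) or the day 6 replicate B (0.068). Voom weights on the recovered reads called 0 members in HUT2365 glucose and 0 in either medium of BCC199. With the 4 libraries of the strain and medium alone in the fit, 0 members were called in HUT2365 wheat bran/soy bean and 5 in BCC199 wheat bran/soy bean (3 higher and 2 lower). Without the day 3 replicate A, 2 were called in HUT2365 wheat bran/soy bean, and without the day 3 replicate B, 1 in BCC199 glucose.

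Whether the change between days in glucose differed between BCC56535 and each other strain was tested directly, a comparison added once the day effects had been seen. Against HUT2365, 7 members changed more towards lower levels in BCC56535 (4.58% of all tested IDs did), 1 changed more towards higher levels (4.2% did) and 12 did not pass. Against BCC199, 8 changed more towards lower levels (9.06% of all tested IDs did), 1 towards higher levels (9.39% did) and 11 did not pass. The 7 against HUT2365 include acu04430_1, acu04712_1 and acu05320_1, which met the minimum level in glucose on day 3 alone. The 8 against BCC199 include acu04430_1 and acu04712_1. The choice by day 3 favoured a fall in these IDs, so their calls are no result of these tests. Both tests use the same BCC56535 libraries, and 6 members passed in both, each towards lower levels. Of the 6, acu05613_1, acu04430_1, acu04712_1 and acu05696_1 had 0 or few reads in the other strains, so the difference mainly restates their change in BCC56535 and says little of a change in the other strains. The 2 with a level in every strain were acu06546_1 and acu00788_1. acu06546_1 had 403 and 891 normalized reads on day 6, against 1703 and 4209.8 on day 3 in BCC56535. In HUT2365 it had 553 and 591 on day 6, against 678 and 487 on day 3, and in BCC199 it had 2727 and 2308 on day 6, against 2030.4 and 743 on day 3. Against HUT2365, 3 members passed with voom weights on the recovered reads. Without any 1 of the 4 HUT2365 glucose libraries 3 or 4 did, and without the BCC56535 glucose day 3 replicate B or day 6 replicate A, 5 did. With the compared glucose libraries alone in the fit, 1 passed against HUT2365 and 3 against BCC199.

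The IDs carry a prefix with a number and a member number, whose meaning neither the labels nor the table states. Of the 20 members, 1 (5%) shares its prefix with another ID, against 11.7% of all IDs. This is acu00477_2, and the other ID of the prefix, acu00477_1, had M of -0.34 on day 6 and 0.01 on day 3 in BCC56535. The lower level of acu00477_2 in wheat bran/soy bean was thus not seen in acu00477_1. Reads could be shared between the IDs of a prefix, and this was not tested. In the order of prefix numbers, neighbouring members lay a median of 216 numbers apart, and 2 pairs lay under 20 apart, acu03427_1 with acu03436_1 and acu03873_1 with acu03884_1.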

How the data were processed

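Libraries were prepared from RNA depleted of ribosomal RNA and enriched for messenger RNA, given paired-end adapters and sequenced on a HiSeq2000, per the labels' protocols. HISAT2 2.1.0, Picard and StringTie were used, per the submitters' processing notes. The role of each tool, the genome build, the annotation, the counting, the use of strand and the way of normalizing were not given in the sources used here. The deposited values are normalized read counts by the authors, a signal with a lowest value of 1 in every library. In each library the value minus 1 was a whole multiple of 1 step for 100% of low values, within 0.02 of a step, and reads were recovered from this.

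The members, lists and rules for naming IDs were chosen with earlier results of these data known. Each test names up to 2 members that rose and up to 2 that fell, by size of change, if they were called, averaged 100 or more in their higher group and had no overlap between libraries. Another 2 are named for each extreme of the rule. They came to 15 of the 20, and the members of groups of 5 or fewer are named besides.

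Linear models (limma 3.58.1, R 4.3.3) of log2(deposited value + 1) covered the 24 libraries, with 12 group means, 12 residual degrees of freedom and an intensity trend in the variance. An ID was tested if 2 or more libraries had a deposited value of 10 or higher (8509 kept, 106 left out). Tests were two-sided contrasts with Benjamini-Hochberg adjustment over all 8509 IDs and a threshold of 0.05. Fold changes on this scale understate the change of low IDs, and those of IDs with 0 or few reads in a group depend on the constant added. Bounds against 0 reads use 3 reads per library, and intervals are 95% exact binomial. Both cover counting error only. On simulated data for the day effect in BCC56535 glucose over 8509 IDs, the fit called 62% of the IDs changed 2-fold and 100% of those changed 4-fold. The simulation gave all 12 groups the same spread at a given level and changed no IDs near 0. In BCC56535 glucose the members' A minus B differences had an SD of 1.42 on day 6 and 0.96 on day 3. For all tested IDs it was 0.72 and 0.80, so these shares may be too high for the members. Means ± SD, where given, are over 2 libraries. The alternatives used a pseudocount of 0.5 or 10, no filter, quantile normalization, library factors from trimmed log ratios, the groups' own libraries alone, the replicate letter as a block, each library left out, and voom weights on recovered reads. Python 3.11.15 with pandas 2.3.3, scipy 1.17.1 and matplotlib 3.10.9 was used for the rest.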

Additional observations from a re-analysis of the deposited data

Results flagged for a closer look

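The change from day 3 to day 6 in glucose passed a direct test of the difference between BCC56535 and both other strains for 6 members (limma, day effect in BCC56535 minus that in the other strain). The difference in log2 change was -4.96 against HUT2365 (adjusted p = 0.0056) and -5.24 against BCC199 (adjusted p = 0.0021) for acu05696_1. For acu04430_1 it was -4.58 against HUT2365 and -5.02 against BCC199. For acu04712_1 it was -4.83 against HUT2365 and -4.42 against BCC199. For acu05613_1 it was -3.39 against HUT2365 (adjusted p = 0.014) and -3.39 against BCC199 (adjusted p = 0.0077). For acu06546_1 it was -2.15 against HUT2365 (adjusted p = 0.045) and -3.18 against BCC199 (adjusted p = 0.0028). For acu00788_1 it was -1.54 against HUT2365 (adjusted p = 0.043) and -2.28 against BCC199 (adjusted p = 0.0027). The first 4 of these IDs reached the minimum level through BCC56535 glucose and had 0 or few reads in the other strains, where a change could hardly be seen. For them the test mainly restates the change in BCC56535 (for acu05613_1, -3.39 in BCC56535 alone), and the size of the difference depends on the constant added before the log. Their calls therefore cannot show whether the change between days differed between the strains. Of these, acu04430_1 and acu04712_1 also met the minimum level in glucose on day 3 alone, which favoured a fall by day 6. Their differences are therefore given as a description. acu06546_1 and acu00788_1 had levels in every strain. Both tests share the 4 BCC56535 libraries. With 2 libraries per group, no group was large enough to test for a sample that lies apart.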

How the results depend on the processing

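The number of members was 19 with the constant of 1 removed, 20 with rescaling and 16 with quantile normalization, of which 17, 20 and 16 were among the 20. It was 5 with M of -3 or lower in BCC56535, 3 with M between -0.5 and 0.5 in the other strains, and 15 to 22 without any 1 library. The members high in BCC56535 glucose numbered 9 to 13 without any 1 library, and those low in its wheat bran/soy bean 1 to 4, with 1 without the BCC56535 glucose day 6 replicate B or the BCC199 glucose day 3 replicate B. With the groups' own libraries alone, the day effect in wheat bran/soy bean was called for 3 members in BCC56535, 0 in HUT2365 and 5 in BCC199, that in BCC56535 glucose for 1, and its difference from HUT2365 for 1 and from BCC199 for 3. Voom weights called 3 for the difference from HUT2365. The cause was not tested. Without any 1 library, the day effect in BCC56535 was called for 3 to 6 members in wheat bran/soy bean and 8 to 11 in glucose, in HUT2365 wheat bran/soy bean for 0 to 2 and in BCC199 glucose for 0 to 1 (1 without the day 3 replicate B). The difference from HUT2365 was called for 3 to 6 members, with 8 in the full fit, and that from BCC199 for 7 to 9, with 9. The HUT2365 count was 5 without the BCC56535 glucose day 3 replicate B or day 6 replicate A, and 3 or 4 without a HUT2365 library. Where a group was left with 1 library, that library was assumed to vary like the other groups. Of 252 values of the named IDs under the alternatives, 226 kept direction and call, 26 lost the call and 0 reversed. The labels pair no libraries across groups, and the A minus B differences of 2 groups correlated between -0.48 and 0.23 across IDs. With the replicate letter as a block, 7 members were called between days in BCC56535 wheat bran/soy bean and 6 for the difference from HUT2365, against 8 and 8 without it, and no other count moved by more than 1. Depth limits IDs of a few reads, such as acu04712_1 and acu04430_1 on day 6.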
